A study of Mus musculus with 6 samples.

Results

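The AP-1 and EGR immediate early factors measured here are 10 genes: the FOS family members Fos, Fosb and Fosl1, the JUN family members Jun, Junb and Jund, the related factor gene Atf3, the zinc finger factor genes Egr1 and Egr2, and Zfp36l1. They were chosen by name, and every probe set annotated to 1 of these symbols alone was taken, which gave 15 of the 12422 probe sets that are not controls. All 10 genes, of 8251 with such a probe set, were on the array. Zfp36l1 is grouped with them as an early response gene, but it encodes an RNA-binding protein and not a transcription factor.

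Total RNA came from C2AS12 cells, which are mouse myoblasts of C2 origin, infected with adenovirus for p300, a histone acetyltransferase and coactivator of transcription. In 3 treatments the cells received wild-type p300 plus doxycycline, the mutant form of p300, or wild-type p300 without doxycycline, each taken after 24 h in low-serum differentiation medium and at 0 h, before that medium was added. There was 1 array for each treatment and time, 6 in all, so that no treatment had a repeat at the same time, and precision is limited by the small number of arrays. The submitters describe apoptotic death with doxycycline and with mutant p300, and survival with wild-type p300. Neither the mutation nor the target of doxycycline is stated in the labels, all 6 arrays are of infected cells, and no array at 24 h lacks the medium change. The myoblast label was checked on 8 markers, among them Myod1, Myf5 and Des, all of which were bright enough to be tested. Myog, another of the 8, passed only through its arrays at 24 h (175.7 to 296.4, against 37.6 to 63.5 at 0 h). Of 6 fibroblast markers 5 were tested too, with Col1a2 at 3505.0 to 5416.6, Col3a1 at 1964.2 to 3623.7 and Dcn at 438.8 to 2475.0, while Thy1 read at most 7.3. Of 6 macrophage and leukocyte markers 2 were tested, Cd14 at 322.4 to 416.6 and Cd68 at 103.9 to 173.0, while Csf1r read 35.2 to 76.9 and Ptprc, Lyz2 and Itgam at most 15.9, 7.3 and 7.9. Of 5 epithelial markers Cdh1 was tested (142.7 to 230.8), and of the 4 endothelial markers none. Over time 4 of the 8 myoblast and early muscle markers were called higher and 0 lower. These were Myog, Chrna1, Itga7 and Des (2.20, 0.89, 0.50 and 0.46 on the log2 scale, limma adjusted p = 0.000119, 0.00153, 0.0115 and 0.0170). Of the 5 tested fibroblast markers 2 were called higher and 0 lower, Col3a1 and Dcn (0.69 and 2.06, limma adjusted p = 0.00323 and 6.71e-05). Among all 4822 tested genes 7.67% were called higher. The part of such genes' cell types in the results was not tested.

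Immediate early genes are transcribed within minutes of a stimulus such as serum, growth factors or stress, without new protein synthesis, and their mRNAs are short-lived. FOS proteins pair with JUN proteins through a leucine zipper to form AP-1, which binds DNA and controls growth, matrix turnover and cell death. EGR proteins bind GC-rich sites through zinc fingers. In myoblasts, AP-1 activity is known to oppose myogenic factors, and serum withdrawal starts differentiation.

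Upstream sequence was taken for 8 of the 10 genes, by symbol from RefSeq for GRCm38.p6, as the 250 bases before each listed start. Egr1 and Fosl1 were left out of this search, so the motif results do not cover them. The windows of Fos and Egr2, which were highest with mutant p300 at both times, and of Zfp36l1, which rose over time in every treatment, are shown because the results turn on these genes. Fos lies at chr12:85473640-85473889 on the plus strand and Zfp36l1 at chr12:80113014-80113263 on the minus strand. The Egr2 window, at chr10:67537619-67537868 on the plus strand, is 1 of 5 listed. It was picked from those that hold both TGACGT and a CArG box, which overlap and share the same sites. Capitals mark matches to the motifs searched.
Fos: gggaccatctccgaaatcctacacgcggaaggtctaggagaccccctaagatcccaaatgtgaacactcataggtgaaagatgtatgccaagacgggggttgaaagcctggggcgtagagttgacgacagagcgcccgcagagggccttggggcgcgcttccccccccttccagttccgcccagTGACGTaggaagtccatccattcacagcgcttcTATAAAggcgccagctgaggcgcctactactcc
Egr2: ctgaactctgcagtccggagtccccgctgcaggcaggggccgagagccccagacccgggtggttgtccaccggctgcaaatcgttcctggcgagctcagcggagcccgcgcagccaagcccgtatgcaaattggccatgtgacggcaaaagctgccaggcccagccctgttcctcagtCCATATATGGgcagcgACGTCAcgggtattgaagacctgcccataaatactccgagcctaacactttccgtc
Zfp36l1: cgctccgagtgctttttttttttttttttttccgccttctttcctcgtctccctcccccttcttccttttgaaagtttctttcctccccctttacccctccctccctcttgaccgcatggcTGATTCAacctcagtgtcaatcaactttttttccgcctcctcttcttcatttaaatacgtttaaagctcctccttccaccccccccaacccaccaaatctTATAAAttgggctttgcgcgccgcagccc
The motifs, searched on both strands, were TGACGT (the core of the cyclic AMP response element, contained in the full element TGACGTCA), TGANTCA (the AP-1 site), GCGNGGGCG (the EGR site), TATAAA (the TATA box) and the CArG box, the site of serum response factor. TGACGT was found in Fos 66 to 61 bases before the start, in the Egr2 window shown 56 to 51 bases before it, and in Atf3. It was present in 6.47% of all 32851 windows of this length. The CArG box of Egr2, 72 to 63 bases before the start, is a motif held by 1.47% of all windows. That share is for 1 window, while this one was picked from 5 for its motifs. TATAAA lay 33 to 28 bases before the start of Fos and 29 to 24 bases before that of Zfp36l1, and in 12.4% of all windows. TGANTCA was found in Zfp36l1, 129 to 123 bases before the start, with a share of 6.75% over all windows, and GCGNGGGCG in Fosb, with 4.7%. TGACGTCA was found in none of these windows of the 8 genes and in 1.55% of all. A match describes letters and does not show binding.

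Values are linear array signals, as deposited. For the tests they were raised to a floor of 16.4, the 25th percentile of all values, and put on the log2 scale. Probe sets with a mean signal of at least 75.2, the median of all means, were tested with limma, 6212 in all, and a probe set was called at a Benjamini-Hochberg adjusted p under 0.05 over all of them. Of the 15 probe sets of these genes 10 passed this filter, for 9 genes. Fos did not, with a mean signal of 72.4 for its brighter probe set, just under the filter. Trimmed mean signals were alike on the 6 arrays (198.3 to 198.9) and between 23.3% and 26.5% of an array's values lay under the floor. For 9 spike-in controls, log2 signal relative to the mean of all arrays was 0.13 with doxycycline, 0.23 with mutant p300 and -0.18 with wild-type p300 at 24 h, against -0.13 to -0.02 at 0 h. Scaling to these controls moved the median change over time of all tested probe sets from 0.00 to -0.12.

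**Figure D1:**
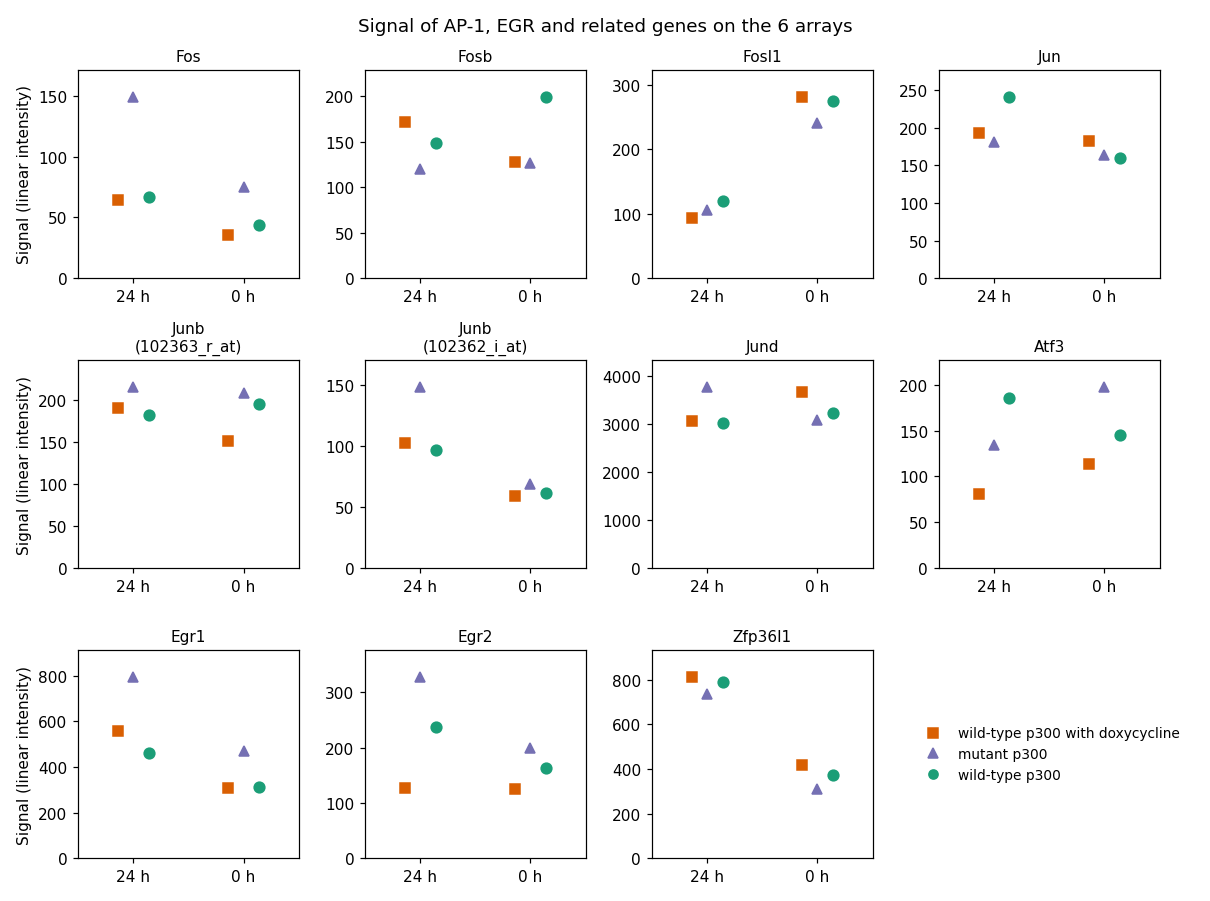
Signal (linear intensity, axes from 0) of the brightest probe set of each gene, with both tested probe sets of Junb, at 24 h (left) and 0 h (right). Each point is 1 array, and colours and shapes mark the 3 treatments. Zfp36l1 and Fosl1 separate the times without overlap, while for Fos, Egr1 and Egr2 the mutant array is the highest at both times.

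The comparison of 24 h with 0 h asked how these genes changed over a day in differentiation medium. Zfp36l1, Egr1 and 1 probe set of Junb rose, Fosl1 fell, and the other 6 tested probe sets did not pass. By limma with treatment as a block, 3 of 10 probe sets were called higher, where 7.24% of all 6212 were, and 1 of 10 lower, where 9% of all were. The Junb probe set among the 3 passed the filter only through its arrays at 24 h. The median change of the 10 was 0.18 on the log2 scale, beside 0.00 for all tested. A lower signal in such bulk RNA can come from fewer cells that express a gene or from less RNA per cell, which cannot be told apart. Medium and time in culture and after infection cannot be told apart either. Since no label speaks of separate cultures, the p-values cover the spread among these 6 arrays alone, which may be technical.

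Fosl1 encodes FRA1, a FOS protein that lacks the transactivation domain of FOS and accumulates later than FOS after stimulation. It read 94.2 with doxycycline, 105.9 with mutant p300 and 120.4 with wild-type p300 at 24 h, against 281.4, 241.4 and 274.6 in the same order at 0 h. Every array at 24 h was below every array at 0 h, and the 3 treatments kept close together at each time. The change was -1.32 ± 0.23 on the log2 scale (mean of the 3 treatments; SD, n = 3; limma adjusted p = 0.000685), a 2.49-fold lower signal. By treatment the change was -1.58 with doxycycline, -1.19 with mutant p300 and -1.19 with wild-type p300.

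Fos encodes the founding AP-1 subunit. Its brighter probe set read 64.1 with doxycycline, 149.2 with mutant p300 and 66.8 with wild-type p300 at 24 h, against 35.5, 75.2 and 43.8 at 0 h. Signal was higher at 24 h in each treatment, but the mutant array at 0 h lay above the doxycycline and wild-type arrays at 24 h, so the times overlapped. The mean change was 0.82 ± 0.19 (SD, n = 3). Since this probe set missed the filter, it was tested only in the fit without one, which called none of 12422 probe sets and gave Fos an unadjusted p of 0.0178 and an adjusted p of 0.201. That fit takes in probe sets set to the floor on all arrays, which show no spread, and their part in its p-values was not tested. Another Fos probe set read 4.2 to 26.9 on all arrays, with 3 of 6 values under the floor.

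Fosb encodes a FOS protein with a transactivation domain. It read 172.0 with doxycycline, 120.5 with mutant p300 and 148.9 with wild-type p300 at 24 h, against 128.1, 127.0 and 199.5 at 0 h. The highest array was the wild-type one at 0 h, and the change differed in sign between treatments, at 0.43 with doxycycline, -0.08 with mutant p300 and -0.42 with wild-type p300. Limma did not call it (adjusted p = 0.950).

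In the JUN family, Junb, whose product is a weaker activator than JUN and can oppose it, was represented by a pair of tested probe sets that differed. The dimmer, 102362_i_at, read 102.6 with doxycycline, 148.7 with mutant p300 and 96.9 with wild-type p300 at 24 h, against 59.3, 69.2 and 61.4 at 0 h. It was higher at 24 h with no overlap, by 0.85 ± 0.23 (SD, n = 3; limma adjusted p = 0.0240). The brighter, 102363_r_at, read 190.8, 215.2 and 181.6 at 24 h and 151.1, 207.6 and 195.3 at 0 h in the same order of treatments, and changed by 0.09 ± 0.22 (adjusted p = 0.692). By their suffixes neither probe set is of the standard design, and the size and the call of the change differed between them. The call on the dimmer was lost without either mutant array (adjusted p = 0.133 without that at 0 h and 0.185 without that at 24 h), without either doxycycline array (0.0730 and 0.0878) and with scaling to the spike-in controls (0.125).

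Jun, the AP-1 subunit that can also act as a homodimer, read 193.6 with doxycycline, 181.1 with mutant p300 and 241.2 with wild-type p300 at 24 h, against 182.8, 163.7 and 160.4 at 0 h. The wild-type array at 24 h stood above the other 5. Its change was 0.27 ± 0.28 and was not called (adjusted p = 0.243). Jund, a JUN gene expressed steadily in most cells, read between 3022.6 and 3774.2 on all 6 arrays, a range of 0.32 on the log2 scale and the narrowest of the 10 tested probe sets. Its change was -0.02 ± 0.28 (adjusted p = 0.930).

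Atf3 encodes a stress-induced factor that pairs with JUN proteins. Its brightest probe set, 104155_f_at, read 80.9 with doxycycline, 134.2 with mutant p300 and 185.4 with wild-type p300 at 24 h, against 114.0, 197.4 and 145.2 at 0 h. By its suffix its probes may be shared within a sequence family, so the signal may not be of Atf3 alone. Signal was lower at 24 h with doxycycline (-0.49) and mutant p300 (-0.56) and higher with wild-type p300 (0.35), and the mean change of -0.23 ± 0.51 was not called (adjusted p = 0.484). Another probe set, under the filter, read 50.1, 77.0 and 48.8 at 24 h and 60.2, 110.8 and 79.4 at 0 h, and was lower at 24 h in all 3 treatments, wild-type p300 included (-0.70). The probe sets thus disagreed on wild-type p300, and the remaining one read 3.1 to 4.2, under the floor.

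Egr1, a zinc finger factor induced by growth factors and stress, read 559.0 with doxycycline, 793.3 with mutant p300 and 463.0 with wild-type p300 at 24 h, against 308.0, 468.5 and 313.5 at 0 h. It rose in each treatment, by 0.86, 0.76 and 0.56 in the same order, with a mean of 0.73 ± 0.15 (SD, n = 3; limma adjusted p = 0.00228), a 1.66-fold higher signal. The times overlapped slightly, since the mutant array at 0 h read above the wild-type array at 24 h. Without the treatment block the adjusted p was 0.0858. Another Egr1 probe set was dim, at 6.1 to 30.3.

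Egr2, known for its part in myelination and in hindbrain patterning, read 127.2 with doxycycline, 327.5 with mutant p300 and 238.0 with wild-type p300 at 24 h, against 124.6, 198.6 and 162.8 at 0 h. It was higher at 24 h by 0.72 with mutant p300 and 0.55 with wild-type p300, and nearly level with doxycycline (0.03). The mean change of 0.43 ± 0.36 was not called (adjusted p = 0.104). Leaving out either doxycycline array leaves the change to mutant and wild-type p300 alone, so both fits gave the same 0.63. It was then called (limma adjusted p = 0.0461 without that at 0 h and 0.0487 without that at 24 h).

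Zfp36l1 encodes a protein that binds AU-rich elements and promotes the decay of mRNAs, among them those of early response genes. It read 811.6 with doxycycline, 735.6 with mutant p300 and 791.6 with wild-type p300 at 24 h, against 418.7, 312.2 and 375.1 at 0 h. The times did not overlap, and the treatments lay close together at each. It rose by 1.09 ± 0.14 (SD, n = 3; limma adjusted p = 0.000246), a 2.13-fold higher signal. Of the 10 tested probe sets, those of Zfp36l1 and 1 of Junb were higher and that of Fosl1 lower at 24 h without overlap, against 12.7% higher and 15.5% lower of all tested. The Junb one passed the filter only through its arrays at 24 h.

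**Figure D2:**
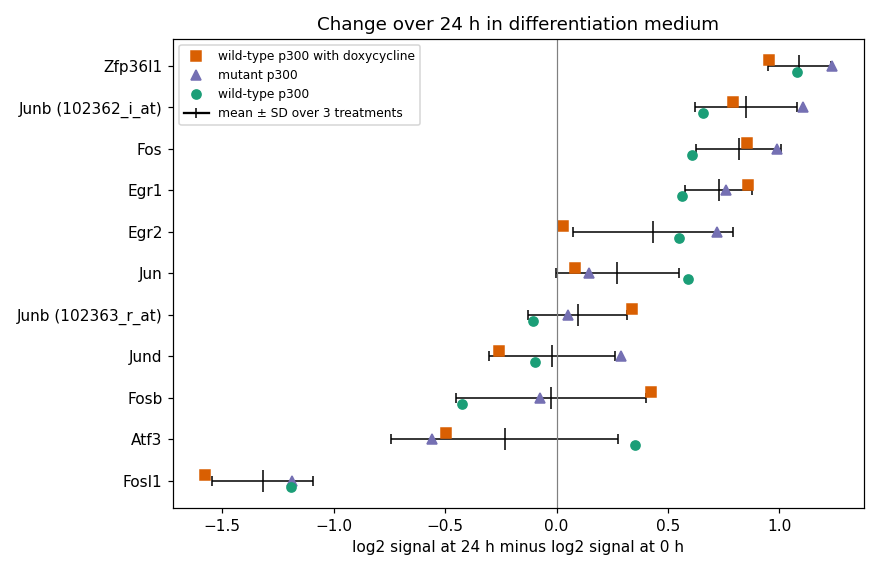
Change of log2 signal from 0 h to 24 h (24 h minus 0 h) for each gene and treatment, with the mean and SD over the 3 treatments as a black tick and bar. Fosl1 lies far to the left at -1.32 and Zfp36l1 to the right at 1.09, while the points of Atf3, Fosb and Jund fall on both sides of 0.

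The comparison of doxycycline and mutant p300 with wild-type p300 asked which genes go with the described death or survival. None of the 10 tested probe sets was called higher or lower by limma. Over both times, with time as a term, the differences ran from -0.39 (Atf3) to 0.40 (Egr1), with adjusted p between 0.411 and 0.988. Of all 6212 probe sets 33 were called, 0.531%, and 0 of the 10 were under an unadjusted p of 0.05, against 852 of all. At 24 h alone the differences ran from -0.83 (Atf3) to 0.52 (Egr1), with adjusted p between 0.495 and 0.978. Of all 6212, 48 were called, 0.773%, and 0 of the 10 were under an unadjusted p of 0.05, against 713 of all. This fit takes the spread of the lone wild-type array from the other arrays. Atf3 at 24 h had a difference of -0.83 ± 0.40 (SE). Without the mutant array at 24 h, which leaves 1 doxycycline array against 1 wild-type array at that time, the difference was -1.20. A test of whether the change over time differed with outcome called 0 of 6212 by limma (0%), with 197 at an unadjusted p under 0.05 and none of the 10 among them.

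Doxycycline and mutant p300 did not give like values for several of these genes, which a mean over both would hide. The mutant array was the highest of the 3 treatments at both times for 4 of the 10 tested probe sets (Egr1, Egr2 and both of Junb), as it was for 17.2% of all tested. With the dim probe sets, it was so for 6 of 15, adding Fos and the dimmer Atf3 probe set, against 12.5% of all 12422. Fos was higher with mutant than with wild-type p300 by 1.16 on the log2 scale at 24 h and 0.78 at 0 h, and Egr1 by 0.78 and 0.58. Egr2 was above wild type with mutant p300 (0.46 and 0.29) and below it with doxycycline (-0.90 and -0.39). The dimmer probe sets of Fos and Egr1 did not show this, and the Egr1 one read lower with mutant than with wild-type p300 (-0.64 at 24 h and -0.29 at 0 h).

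These differences were then fitted for each treatment with time as a term, a fit chosen after the values had been seen. With mutant p300, Egr1 was higher than with wild-type p300 by 0.68 ± 0.12 (SE; limma adjusted p = 0.0759), and none of the 10 was called, where 0.225% of all were. With doxycycline, Atf3 at -0.77 ± 0.25 (adjusted p = 0.175) and Egr2 at -0.64 ± 0.20 (adjusted p = 0.152) were furthest from wild-type p300 and none was called, against 1.13% of all. Mutant p300 minus doxycycline was 1.02 ± 0.20 for Egr2 (adjusted p = 0.186) and 0.56 ± 0.12 for Egr1 (adjusted p = 0.201). That comparison called 0 of 6212 by limma (0%), with 818 at an unadjusted p under 0.05, 4 of them among the 10. All 3 comparisons share arrays, and 1 array for each treatment and time stands behind every value.

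**Figure D3:**
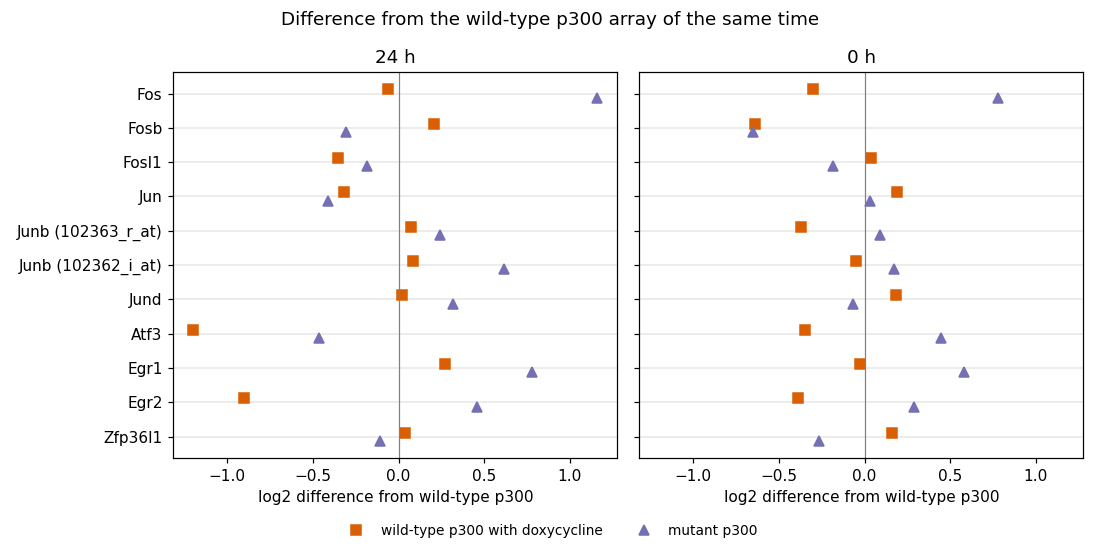
Log2 difference from the wild-type p300 array of the same time, at 24 h (left panel) and 0 h (right panel), for doxycycline (squares) and mutant p300 (triangles). The triangles of Fos and Egr1 lie to the right of 0 at both times, up to 1.16 for Fos at 24 h, and the squares of Egr2 and Atf3 lie to the left, down to -1.20 for Atf3 at 24 h.

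Genes around these factors were taken from lists in which each gene stands by its brightest probe set. Over time 7.67% of 4822 tested genes were called higher and 9.33% lower. Of 10 tested partners of AP-1 and EGR proteins, 0 rose and 1 fell, the bZIP factor gene Atf5, at -1.15 ± 0.34 (SD, n = 3). The EGR corepressor genes Nab1 and Nab2 changed by -0.21 and 0.11 and were not called. Of 14 genes of upstream signalling, 1 rose and 0 fell. It was Egfr, the epidermal growth factor receptor, at 0.82 ± 0.11, while the kinase genes Mapk8 (0.12) and Mapk14 (-0.02) were not called.

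Of 25 other immediate early genes, 2 rose and 2 fell over time. Gadd45a, a growth arrest and DNA damage gene, rose by 1.22 ± 0.28 and Btg2, an antiproliferative gene, by 0.69 ± 0.14. The zinc finger factor gene Klf10 fell by 0.70 ± 0.17 and Id1, an inhibitor of myogenic factors, by 1.21 ± 0.21. Of 14 genes reported as AP-1 or EGR targets, 2 rose and 3 fell. The membrane metalloproteinase gene Mmp14 rose by 0.62 ± 0.19 and Tgfb1 by 0.63 ± 0.14. The heme oxygenase gene Hmox1 fell by 0.82 ± 0.12, Ccnd1, cyclin D1, by 0.68 ± 0.41 and Plaur, the urokinase receptor, by 0.56 ± 0.09. The median changes over time were 0.36 for the 3 tested MAPK phosphatase genes, 0.12 for partners, 0.00 for upstream signalling, 0.08 for other immediate early genes and -0.08 for targets, beside 0.01 for all genes. Among these calls, Plaur and Ccnd1 were lost without either mutant or either doxycycline array (adjusted p 0.0533 to 0.129), Tgfb1 without either mutant array (0.0557 and 0.0572) and Klf10 without the mutant array at 0 h (0.0537). Scaling to the spike-in controls ended the calls of Mmp14 (0.0896), Btg2 (0.0638) and Tgfb1 (0.124), dropping the treatment block those of Mmp14 (0.0910), Tgfb1 (0.136) and Ccnd1 (0.223), and dropping the variance trend that of Ccnd1 (0.0595).

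Dusp1, the phosphatase that switches off MAP kinases and is itself an immediate early gene, was 1 of 3 tested MAPK phosphatase genes. It read 452.6 with doxycycline, 478.2 with mutant p300 and 1041.4 with wild-type p300 at 24 h, against 300.8, 354.8 and 494.6 at 0 h. The wild-type array was the highest at each time, and at 24 h it stood more than 1 log2 unit above both others. By limma Dusp1 was lower with doxycycline and mutant p300 at 24 h (-1.16 on the log2 scale, adjusted p = 0.0305), where 0.788% of all genes were called lower, and over both times (-0.88, adjusted p = 0.0456), where 0.539% were. It also rose over time, by 0.70 ± 0.34 (SD, n = 3; limma adjusted p = 0.00913), a call lost with scaling to the spike-in controls (0.58, adjusted p = 0.0619) and without the treatment block (0.211). The call over both times was lost without the mutant array at 24 h (adjusted p = 0.0963), the doxycycline array at 0 h (0.104) or the wild-type array at 24 h (0.999), and both calls narrowly with quantile normalization (0.0515 at 24 h and 0.0517 over both times).

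Other list genes called lower with doxycycline and mutant p300 at 24 h were Sgk1, a serum- and glucocorticoid-induced kinase gene, and Ccl2, a chemokine gene with AP-1 sites. Sgk1 read 143.6, 249.1 and 757.7 with doxycycline, mutant and wild-type p300 at 24 h, a difference of -2.0 (limma adjusted p = 0.0280; 0.0535 with quantile normalization), and 449.7, 588.5 and 696.8 at 0 h. Ccl2 read 150.7, 217.6 and 1773.7 in the same order at 24 h, a difference of -3.29 (adjusted p = 0.00563), and 321.1, 441.5 and 1487.0 at 0 h. Ccl2 was also called over both times (-2.64, limma adjusted p = 0.00695), a call lost without the wild-type array at 24 h (adjusted p = 0.165). None of the listed genes was called higher with doxycycline and mutant p300, where 0.0415% of all genes were at 24 h and 0.0207% over both times. The median difference at 24 h was -0.27 over the 25 other immediate early genes, -0.22 over the 14 targets, -0.35 over the 3 MAPK phosphatase genes, -0.02 over upstream signalling and 0.05 over the partners, beside 0.05 for all genes. The 3' to 5' signal ratio of the actin control, a sign of RNA quality, was 1.45 with doxycycline, 1.49 with mutant p300 and 1.33 with wild-type p300 at 24 h, against 1.30 to 1.34 at 0 h, and its part in these differences was not tested.

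By their brightest probe sets, the 3 of the 10 genes with the widest range over the 6 arrays were Fos (2.07 on the log2 scale), Fosl1 (1.58) and Egr2 (1.39). Among 832 other genes that spanned at least 1 on that scale, those most like each were taken by Pearson's r of log2 signal over the 6 arrays, as a description with no test, since the best of so many is high by selection. For Fos these were Tgfb1 (r = 0.99), the orphan receptor gene Nr4a1, itself an immediate early gene (0.97), and Arhgef7 (0.96). Nr4a1 read 144.9 with doxycycline, 203.7 with mutant p300 and 130.0 with wild-type p300 at 24 h, against 87.3, 136.1 and 113.1 at 0 h, so that its mutant array was also the highest at each time. For Fosl1 they were Ran, a GTPase gene of nuclear transport (0.99), Sfxn1 (0.99) and H2az1, a histone variant gene (0.98). Ran read 2012.4, 2162.6 and 2147.9 at 24 h and 4152.4, 4180.1 and 4353.3 at 0 h in the same order of treatments. For Egr2 the closest were Phtf2 (0.93), Csrp1 (0.90) and Lsm14b (0.90).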

How the data were processed

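Biotin-labelled total RNA was measured on 1 array for each of 3 treatments and 2 times. The authors deposited linear signal intensity for 12488 probe sets, and MAS5 is named per the submitters' processing notes; no version or settings of it are given in the sources read, and the table used has no detection calls. Values were used as deposited, and 66 control probe sets were left out. Gene symbols came from the platform annotation, updated through RefSeq gene IDs of GRCm38.p6 (10833 probe sets with 1 symbol, 396 with several, 1193 with none), and upstream sequences from RefSeq of the same assembly.

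Linear models used limma 3.58.1 (R 4.3.3), with a variance trend in eBayes and 2-sided tests. The time effect had treatment as a block, with 2 residual degrees of freedom. The outcome effect over both times had time as a term, which takes both arrays of a treatment as independent. The outcome effect at 24 h and the interaction came from 1 mean for each outcome and time. Scripts were tested on simulated data. Summaries and figures used Python 3.11.15 with pandas 2.3.3 and matplotlib 3.10.9. Named genes were all members, the called genes of each list (at most 6 by size) and the 3 genes most like each of the 3 members of widest range; Nab1, Nab2, Mapk8 and Mapk14 were added after their values were seen. The members and lists were chosen with earlier results of these data known. Alternatives were the filter, floor, scaling, variance trend, model terms and each array left out.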

Additional observations from a re-analysis of the deposited data

Results flagged for a closer look

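In 2 of the 10 tested probe sets the change over time with wild-type p300 ran opposite to that with both doxycycline and mutant p300. For the brightest Atf3 probe set the changes were -0.49 with doxycycline, -0.56 with mutant p300 and 0.35 with wild-type p300, and the interaction was -0.88 on the log2 scale. For the brighter Junb probe set they were 0.34, 0.05 and -0.11 in the same order, with an interaction of 0.30. Limma's interaction test called neither (adjusted p = 1.0 for each). The dimmer Atf3 probe set fell short of the filter and was lower at 24 h with wild-type p300 too.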

How the results depend on the processing

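The time effect paired both times within each treatment, and no fit with a replicate number as a block was made, since the labels give none. With 1 wild-type array for each time, leaving it out ends the comparison at 24 h and the interaction, so these were not run. Without the filter on dim probe sets, the time effect called 0 probe sets and 0 of these genes, the outcome effect 10 over both times and 192 at 24 h, and the interaction 245. Scaled to the spike-in controls, the counts were 619, 237, 426 and 1 in that order, with 141 higher and 478 lower over time, against 450 and 559. Without the variance trend, the outcome effect called 1 over both times and 11 at 24 h. Without the treatment block the time effect called 514, with 2 of these genes' probe sets, and without the time term the outcome effect called 0. Doxycycline alone against wild-type p300 gave 70 and mutant p300 alone 14, both chosen after seeing the data. Leaving out 1 array gave 479 to 1283 for time, 0 to 50 for outcome over both times, 161 to 351 at 24 h (0 to 1 of these genes) and 6 to 43 for the interaction.

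Zfp36l1, Egr1 and Fosl1 kept their direction and call over time under every scaling, floor and left-out array. Without the filter their limma adjusted p was 0.0901, 0.118 and 0.102, though their SE was smaller (0.0715, 0.0764 and 0.117, against 0.0975, 0.101 and 0.143). That fit includes probe sets set to the floor on all arrays, whose part in its p-values was not tested. At 24 h, Dusp1, Sgk1 and Ccl2 had adjusted p of 0.184, 0.412 and 0.174 without the filter, and 0.122, 0.131 and 0.0352 without the variance trend. Every reversal was of a value not called on either side. Over time, leaving out 1 array gave -0.25 to 0.17 for Fosb, -0.0265 to 0.19 for the brighter Junb probe set and -0.18 to 0.10 for Jund, quantile normalization gave Jund 0.0785, and spike-in scaling gave the brighter Junb probe set -0.0271. Over both times, leaving out 1 array gave -0.83 to 0.0470 for Atf3, -0.42 to 0.17 for Egr2, -0.37 to 0.11 for Jun, -0.14 to 0.16 for the brighter Junb probe set and -0.13 to 0.0480 for Zfp36l1. Spike-in scaling gave that Junb probe set -0.15 and Jund -0.0438, quantile normalization gave it -0.00751, doxycycline alone gave it -0.15 and Zfp36l1 0.10, and mutant p300 alone gave Egr2 0.37. At 24 h, leaving out 1 array gave -0.90 to 0.46 for Egr2, -0.31 to 0.21 for Fosb and -0.11 to 0.0360 for Zfp36l1, and spike-in scaling gave -0.21 and -0.0149 for the brighter and dimmer Junb probe sets and -0.19 for Jund. That scaling moved the median of all tested probe sets from 0.04 to -0.32 at 24 h and from 0.03 to -0.13 over both times. The cause of these changes was not tested.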
